A study of Mus musculus with 28 samples.

Results

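The genomic windows described here are stretches of 5 kb that lay under no H3K9Ac island in any of the 3 MC38 CTRL libraries and had at least 500 bp under islands in each of the 3 MC38 SETDB1 libraries. They numbered 474 of 526333 windows (0.0901%) on chromosomes 1 to 19 and X, and are called member windows below. They were chosen by the H3K9Ac islands of MC38, so those values are given as a description without a test. The mirrored rule, with islands in all 3 CTRL and none in the 3 SETDB1 libraries, found 330 windows (0.0627%), called lost windows. Against these stand the 359094 windows without an H3K9Ac island in any MC38 CTRL library, from which the members were drawn.

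The study mapped H3K9me3 and H3K9Ac by chromatin immunoprecipitation and sequencing in 2 mouse tumour lines, MC38 (colon adenocarcinoma) and B16OVA (melanoma, called B16 in the sample titles). All cells carried the pCRISPR-v2-puro vector and were kept in puromycin. In the CTRL groups the vector was empty, and in the SETDB1 groups it carried a guide against Setdb1, labelled Setdb1 KO. Each line, genotype and mark had 3 numbered libraries, 24 in all. The labels do not say whether the cells were clones or whether replicates were separate cultures, so p-values measure the spread between these libraries. A level in such a population does not tell a change in the share of cells with the mark from a change per cell.

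Setdb1 is an enzyme that trimethylates lysine 9 of histone H3. The product, H3K9me3, marks silenced chromatin, above all at retroelements and zinc finger gene clusters. Acetylation of the same residue (H3K9Ac) is found at active promoters and enhancers, and a lysine tail cannot carry both groups at once. Setdb1 has been studied in tumour cells because its loss can release such silenced elements.

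The H3K9Ac libraries held 28451633 to 78082966 island reads and the H3K9me3 libraries 15198930 to 45414798. One library stood apart: H3K9me3 islands of MC38 SETDB1 replicate 3 covered 215.4 Mb, against 344.1 to 563.4 Mb in the other 5 MC38 libraries of that mark. Of the melanocyte markers whose starts could be placed, 4 of 4 lay under H3K9Ac in all 3 B16 CTRL libraries and 1 of 4, Mitf, in all 3 of MC38. For colon epithelium the count was 3 of 7 in both lines (Krt8, Krt18 and Lgals4), so these starts did not set MC38 apart. For mesenchymal markers it was 2 of 3 in both, and for leukocyte markers 0 of 3 in both, although Ptprc had islands in 2 of the 3 MC38 CTRL libraries. No value here checks the knockout, since a guide need not change either mark at Setdb1 itself.

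Of the 474 member windows, 29 held an annotated gene start. They held 30 starts of 28 genes, of which 8 were protein-coding: Grid2ip, Colca2, Dmp1, Fhl2, Sec16b, Sh3bp2, Fmo5 and Hsd17b13. The 250 bases upstream of 6 starts are printed to show what kind of sequence lay there. Shown are the start in the member with the highest H3K9Ac (Gm38563), the 4 that hold the AP-1 motif TGACTCA, and Fhl2, a coding gene whose start lay under islands of all 3 MC38 SETDB1 libraries. They are given 5′ to 3′ on the strand of the gene, from RefSeq on GRCm38.p6, the assembly of mm10, and capitals mark the matches to the motifs named below.
Gm38563, chr15:61156907-61157156, plus strand: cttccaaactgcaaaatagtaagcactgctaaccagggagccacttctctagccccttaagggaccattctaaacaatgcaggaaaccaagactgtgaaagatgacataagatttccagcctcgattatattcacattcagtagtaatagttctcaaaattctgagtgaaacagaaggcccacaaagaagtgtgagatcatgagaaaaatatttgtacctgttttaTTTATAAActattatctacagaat
Gm33471, chr8:120916693-120916942, plus strand: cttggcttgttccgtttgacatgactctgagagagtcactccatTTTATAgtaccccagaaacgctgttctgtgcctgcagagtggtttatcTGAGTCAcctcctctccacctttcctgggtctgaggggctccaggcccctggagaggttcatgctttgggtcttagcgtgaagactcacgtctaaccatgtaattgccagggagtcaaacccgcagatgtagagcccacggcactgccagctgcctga
Gm39258, chr8:116529402-116529651, minus strand: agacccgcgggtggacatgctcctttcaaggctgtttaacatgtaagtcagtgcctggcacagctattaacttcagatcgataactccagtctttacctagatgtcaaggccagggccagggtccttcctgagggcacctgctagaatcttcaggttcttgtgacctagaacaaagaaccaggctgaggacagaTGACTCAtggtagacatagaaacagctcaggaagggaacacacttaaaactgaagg
Gm40921, chr13:38259712-38259961, minus strand: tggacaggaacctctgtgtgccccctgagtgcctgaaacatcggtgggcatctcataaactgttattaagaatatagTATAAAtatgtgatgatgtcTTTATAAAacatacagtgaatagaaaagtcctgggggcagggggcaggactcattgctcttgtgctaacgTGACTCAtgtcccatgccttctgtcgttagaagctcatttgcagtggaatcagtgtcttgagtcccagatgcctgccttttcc
Gm5122, chr9:61016819-61017068, plus strand: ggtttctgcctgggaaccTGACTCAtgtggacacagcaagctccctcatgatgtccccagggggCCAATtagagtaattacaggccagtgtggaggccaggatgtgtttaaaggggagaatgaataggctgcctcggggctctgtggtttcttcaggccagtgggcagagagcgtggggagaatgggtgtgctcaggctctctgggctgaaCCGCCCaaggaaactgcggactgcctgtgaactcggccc
Fhl2, chr1:43196762-43197011, minus strand: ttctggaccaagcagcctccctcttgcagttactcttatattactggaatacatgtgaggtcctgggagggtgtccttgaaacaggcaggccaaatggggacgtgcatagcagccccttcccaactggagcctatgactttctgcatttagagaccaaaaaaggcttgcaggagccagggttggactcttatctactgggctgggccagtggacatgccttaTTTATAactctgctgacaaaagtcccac
AP-1 is the name of the Fos and Jun family of enhancer-binding factors. Its motif was found, on either strand, in 4 of the 30 upstream stretches (13.3%) and in 4.48% of all 32619. Of these 4, the starts of Gm33471 and Gm5122 lay under islands in all 3 MC38 SETDB1 libraries. The Gm39258 and Gm40921 starts did so in 1. The TATA box TATAAA was found in 7 (23.3%, all 12.4%), and the GC box GGGCGG of housekeeping promoters in 4 (13.3%, all 33%). The CCAAT box was found in 9 (30%, all 34%) and the E-box CACGTG in 1 (3.33%, all 6.06%). Neither the CRE letters TGACGTCA (all 1.56%) nor the letters of the interferon response element (all 2.99%) occurred in these 30 stretches. The median number of CpG sites was 3.5 in these stretches, 6 over all and 14 over stretches whose start lay under H3K9Ac in all 6 MC38 libraries. A match is a description of letters, not of binding, and 30 stretches are few.

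H3K9Ac in the member windows was low for acetylated chromatin. Levels are given as RPM, the reads of a window per 1000000 island reads of its library, without further scaling. The median member had 3.743 RPM in MC38 SETDB1 replicate 1, 4.112 in replicate 2 and 4.231 in replicate 3. Over every window in which islands covered 500 bp or more the medians were 6.921, 7.506 and 7.035 RPM in the same libraries, so the member medians lay at the 23.6, 22.2 and 26.5 percentiles. The lowest of the 3 values of a member ran from 0.7833 to 14.55 RPM, with a median of 2.834.

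**Figure D1:**
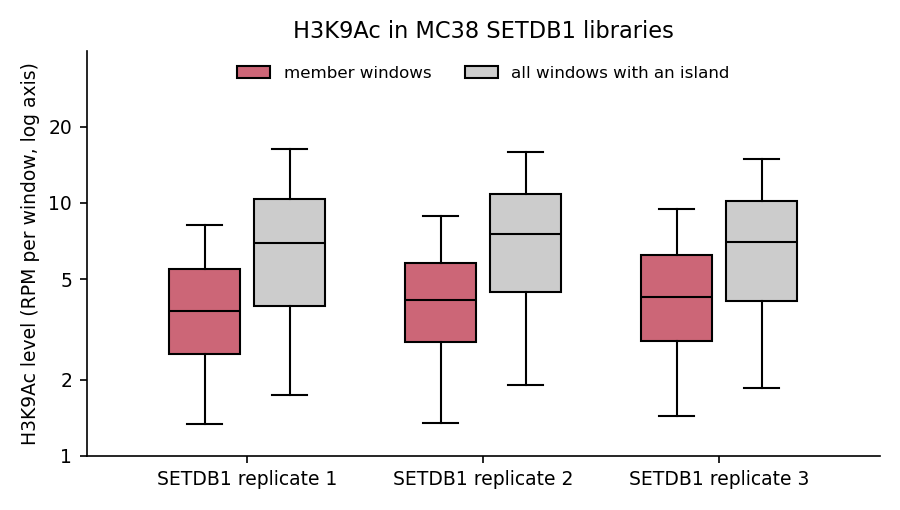
H3K9Ac level per 5 kb window (RPM, log axis) in the 3 MC38 SETDB1 libraries, for the 474 member windows and for every window in which islands covered 500 bp or more. Boxes span the quartiles with the median as a line, and whiskers reach the 5th and 95th percentiles. Member medians of 3.743, 4.112 and 4.231 RPM lie below those of all acetylated windows in each library.

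Islands over members had a median density of 1.624, 1.647 and 1.773 RPM per kb in SETDB1 replicates 1, 2 and 3. The 10th percentile of these densities was 1.321, 1.339 and 1.441. Islands of the CTRL libraries over the genome had a 1st percentile of 1.298, 1.328 and 1.264 and a 10th of 1.512, 1.532 and 1.474 RPM per kb, so the weaker member islands lay near the lowest densities called in CTRL. The part of the calling limit in the missing CTRL islands was not tested. An absent island in CTRL is no measured absence of reads, and the rise in the read level itself cannot be given. At the threshold, 40 members had 600 bp under islands in their least covered SETDB1 library, and 38 windows just outside had 400 bp there. Just inside, the window from 72420001 on chromosome 1 had 1200, 1000 and 600 bp and 2.015, 1.402 and 1.968 RPM. Just outside, the one from 156790001 had 1400, 400 and 1400 bp. At the other end, 4 members were covered over all 5000 bp in all 3 libraries. Leaving out a library removes a condition of the rule, so the count of members could only stay or rise. It was 681, 972 and 1957 without CTRL replicate 1, 2 or 3, and 898, 1874 and 1484 without SETDB1 replicate 1, 2 or 3.

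Most member windows lay under 5 kb from an H3K9Ac island of MC38 CTRL. The islands of the 3 CTRL libraries were pooled for this, so an island of a single library counted. The nearest MC38 CTRL island lay under 1 kb away for 150 members (31.6%) and under 5 kb away for 335 (70.7%), with a median of 2 kb. Over all windows without CTRL islands the median was 76.4 kb and 12.8% were under 5 kb away. The lost windows stood alike towards SETDB1 islands, with a median of 2.2 kb and 65.8% under 5 kb. In SETDB1 replicates 1, 2 and 3, the island over a member also touched a CTRL island for 107, 135 and 103 members. For 46 members this was so in all 3 libraries, and for 284 (59.9%) in none.

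**Figure D2:**
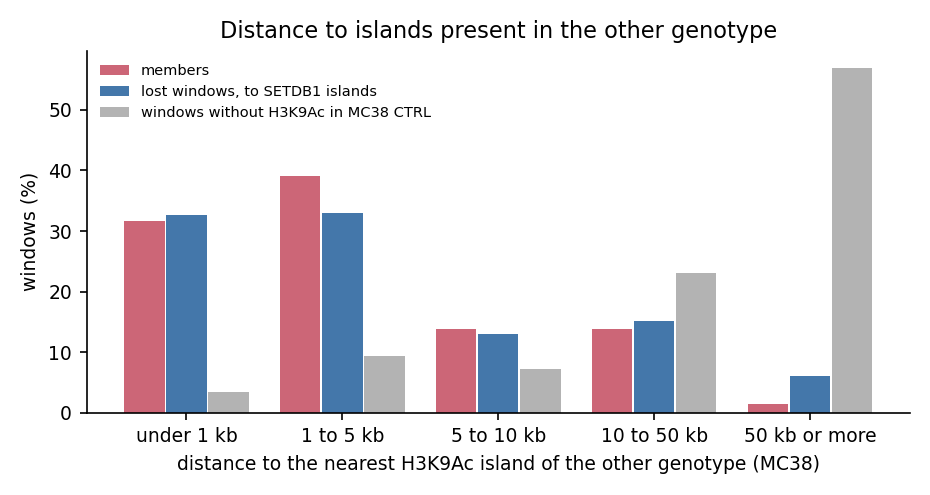
Share of windows (%) by distance to the nearest MC38 H3K9Ac island of the other genotype. Of the members, 31.6% lie under 1 kb from a CTRL island and 1.48% at 50 kb or more, against 3.38% and 56.9% of all windows without CTRL islands. Lost windows, measured to SETDB1 islands, are shown beside them.

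Away from the window the genotypes lay closer together. Between 2.5 and 5 kb from the window centre, CTRL islands covered 7.48%, 10.3% and 14.8% of positions in replicates 1, 2 and 3 and SETDB1 islands 35.9%, 35% and 34.2%. Between 10 and 25 kb they covered 27.1%, 28.7% and 34.4% in CTRL and 33.6%, 33% and 33.7% in SETDB1. The groups did not overlap at the first distance, and at the second they overlapped through CTRL replicate 3 alone. The rule fixed the values inside the window and, through the islands' length, much of those beside it.

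**Figure D3:**
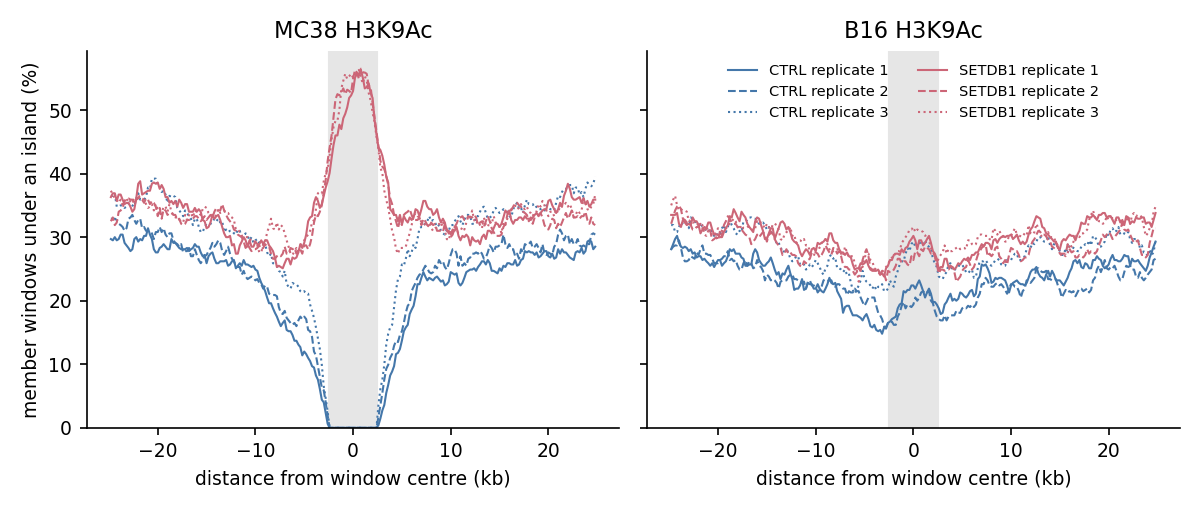
Share of member windows (%) under an H3K9Ac island at each distance from the window centre (kb), 1 line per library, for MC38 (left) and B16 (right). The grey band is the window itself. In MC38 the CTRL lines are at 0 in the band by the rule and lie closer to the SETDB1 lines at 10 to 25 kb, where CTRL replicates 1 and 2 are still below them, while in B16 all 6 libraries have islands over some members.

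A minority of members stood far from acetylated chromatin: 73 were 10 kb or more from a CTRL island and 7 were 50 kb or more. Farthest was the window from 86585001 on chromosome 15, at 90.6 kb, with 2.425, 2.912 and 3.227 RPM in SETDB1 replicates 1, 2 and 3. Next came neighbouring windows inside Slit2, a secreted axon guidance cue, at 90.4 and 85.4 kb. The one from 48235001 on chromosome 5 had 5.679, 4.766 and 1.673 RPM, and that from 48240001 had 5.679, 4.264 and 2.51 RPM. These were named after their distances were seen.

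The 474 windows formed 416 separate runs, of which 362 were single windows, 51 pairs, 2 runs of 3 and 1 of 4. The run of 4 covered chr13:91380001-91400000 at the non-coding gene A830009L08Rik, 60.3 kb from Ssbp2. Summed over the run, H3K9Ac was 21.02, 33.33 and 30.4 RPM in SETDB1 replicates 1, 2 and 3. A run of 3 lay inside Rbm20, which encodes a splicing factor of heart muscle (chr19:53735001-53750000; 15.86, 11.26 and 15.08 RPM). Of the pairs, the one at chr15:61150001-61160000 had the highest sum, 26.77, 27.68 and 30.38 RPM. It included the start of the non-coding gene Gm38563 and stood 50.2 kb or more from any CTRL island.

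The cluster with the most members held 5 in 50 kb on chromosome 8 (chr8:120905001-120955000). It lay between Irf8 and Foxf1, genes of transcription factors of myeloid cells and of mesenchyme. Its 3 first windows form a run with 24.51, 23.81 and 25.48 RPM, and its last pair had 15.84, 23.24 and 22.08 RPM. The promoter of the non-coding gene Gm33471, printed above with its AP-1 and TATA letters, lies in this run. B16 libraries also had H3K9Ac here, with the higher values in SETDB1 in 4 of the 5 windows. The window of the Gm33471 start, from 120915001, had 4.321, 3.384 and 3.16 RPM in B16 CTRL and 6.544, 5.322 and 4.715 in B16 SETDB1. The window from 120905001 had no island in B16 CTRL and 3.669, 5.439 and 4.89 RPM in B16 SETDB1. The window from 120910001 likewise had none in CTRL and 3.951, 6.579 and 2.216 RPM in SETDB1. The window from 120945001 had 3.397, 2.975 and 4.824 RPM in CTRL and 5.248, 4.996 and 7.028 RPM in SETDB1. In these 4 windows each SETDB1 library was above each CTRL library, and none passed edgeR's test. The fifth, from 120950001, had no CTRL island and 8.746, 0 and 5.287 RPM in SETDB1, and so overlapped.

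Member windows overlapped genes more often than windows at large and less often than acetylated windows. A gene overlapped 299 members (63.1%), against 52.7% of all windows, 40.9% of those without CTRL islands, 66.7% of lost windows and 87.5% of windows acetylated in all 6 MC38 libraries. A gene start lay in 29 (6.12%), against 5.03%, 2.81%, 5.45% and 14% of the same sets. For protein-coding starts alone the members stood at 1.69%, the windows without CTRL islands at 1.59% and the acetylated windows at 11.5%. No gene overlapped 175 members (36.9%). Starts on chromosome 18, which held 12 members, were not analysed here and count as absent in all these shares. Of the 30 starts inside members, 13 lay under islands in all 3 SETDB1 libraries, 15 in 1 or 2 and 2 in none. Whether a window inside a gene was exonic or intronic is not given by the gene table used here.

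Protein-coding genes under members numbered 200 of 21627 (0.925%), with a median length of 119.5 kb, against 17.33 kb for all. A long gene holds more windows, and this was not corrected for. Cdh13, which encodes a cadherin without the usual membrane-spanning part, had 4 member windows over a long stretch of chromosome 8. The highest of them, from 119270001, had 6.854, 8.413 and 4.906 RPM in MC38 SETDB1. Ccl24, a chemokine for eosinophils, had 2 (from 135565001 and 135570001 on chromosome 5), with 7.528, 3.991 and 4.509 RPM in the second. In all, 32 protein-coding genes held 2 or more member windows. A single microRNA hairpin lay in a member, Mir1962, in a window inside Ptpre (from 135565001 on chromosome 7; 5.013, 3.793 and 6.256 RPM).

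By chromosome, members ran from 29 of 18978 windows on chromosome 17 (0.153%) to 1 of 34177 on X (0.00293%). Lost windows were as rare on X, with 1, and chromosome 3 held most members in number, 46.

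Ranked by the lowest of the 3 SETDB1 values, the highest members in a protein-coding gene lay in genes of varied function. Cnnm2, a magnesium transport protein, had 8.121, 10.83 and 9.419 RPM (chr19:46810001-46815000), 0.4 kb from a CTRL island. In B16 that window had 0, 0 and 7.082 RPM in CTRL and 5.935, 5.727 and 5.567 RPM in SETDB1, which overlap. Atxn1, a nuclear repressor known from an inherited ataxia, had 8.021, 8.008 and 7.666 RPM in MC38 SETDB1. In B16 it was acetylated in both genotypes, at 6.107, 5.734 and 4.477 RPM in CTRL and 7.204, 4.132 and 6.09 in SETDB1. Slc35f3, a solute carrier, had 9.8, 7.461 and 9.192 RPM in MC38 SETDB1. In B16 it too was acetylated throughout, at 5.208, 9.161 and 5.419 RPM in CTRL and 6.229, 9.025 and 7.613 in SETDB1. Batf2, an AP-1 family factor induced by interferon, had 6.342, 5.969 and 8.171 RPM in MC38 SETDB1. Its B16 values were 3.321, 2.694 and 2.48 RPM in CTRL and 2.036, 3.185 and 2.859 RPM in SETDB1.

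Others had little or no H3K9Ac in B16. Camk1d, a calcium-dependent kinase, had 6.033, 6.822 and 8.576 RPM in MC38 SETDB1 and no H3K9Ac island in any B16 library. That window carried H3K9me3 in B16 instead, at 12.71, 12.78 and 16.28 RPM in CTRL and 10.25, 10.61 and 11.57 in SETDB1. In RPM, which are not scaled further, every SETDB1 library was below every CTRL library there. The covered length overlapped, at 4000, 4000 and 5000 bp in CTRL and 5000, 3400 and 5000 bp in SETDB1. After scaling, edgeR's log2 change was -0.10 (unadjusted p = 0.919). Over the genome, B16 H3K9me3 islands had median densities of 2.947, 2.94 and 3.396 RPM per kb in CTRL. In SETDB1 these were 2.21, 2.594 and 2.337 RPM per kb, in the same order as at this window. Col24a1, a collagen chain, had 6.826, 8.62 and 9.92 RPM in MC38 SETDB1 and a B16 island in SETDB1 replicate 1 alone, at 1.729 RPM. The remaining 6 genes of this ranking were Rbm20, Uroc1 of histidine breakdown, Myo16, Tbc1d9, the lysosomal sulphatase gene Arsb and the Golgi tether gene Cog5. Their MC38 SETDB1 values ran from 5.984 to 10.33 RPM, and each had an island in at least 1 B16 CTRL library.

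**Figure D4:**
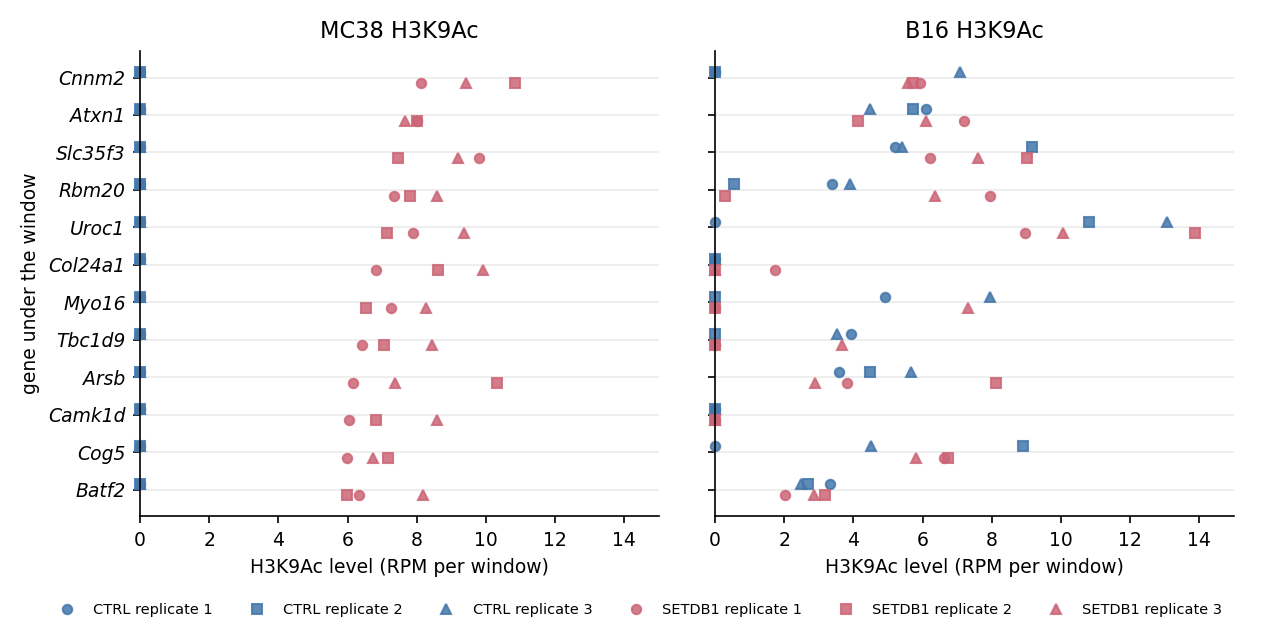
H3K9Ac level (RPM per 5 kb window) of the 12 highest member windows in a protein-coding gene, 1 point per library, in MC38 (left) and B16 (right). In MC38 all CTRL points are at 0 by the rule and SETDB1 points lie between 5.969 and 10.83 RPM, while in B16 the genotypes overlap in each of the 12.

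Of the gene lists examined, 4 held 1 gene under a member each and the others 0. Of all 49550 genes, 287 (0.579%) overlapped a member, and a single gene in a short list is too few to compare with that share. From the germline list 1 of 33 did, Tdrd9, a helicase of the piRNA pathway (2.617, 4.552 and 5.26 RPM in MC38 SETDB1). From gut epithelium 1 of 30 did, the galectin gene Lgals4 (5.028, 3.246 and 4.323 RPM), whose start was acetylated in all 3 CTRL libraries. From growth factors and cytokines 1 of 63 did, Tgfb3 (3.409, 4.148 and 4.557 RPM), and from zinc finger genes 1 of 448, Zscan2 (7.77, 5.235 and 7.145 RPM). Tdrd9, Tgfb3 and Zscan2 were also acetylated in all 3 B16 CTRL libraries. No member overlapped any of 50 interferon and nucleic acid sensing, 20 antigen presentation, 26 H3K9 methylation or 37 imprinted genes. The same held for 25 fibroblast, 27 leukocyte, 60 neuronal and 18 melanocyte genes, 1428 olfactory and 625 vomeronasal receptors and 58 clustered protocadherins. The olfactory and vomeronasal receptor genes had median lengths of 0.945 and 0.939 kb, against 6.005 kb over all genes. The 60 neuronal genes were far longer, with a median of 916.5 kb. They held no member, while 2 of them overlapped lost windows, as did 235 of all 49550 genes. Gene length was not corrected for.

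Of the 6 highest members that held a gene start, 5 held that of a non-coding gene. Gm38563 had 14.55, 15.38 and 16.16 RPM in MC38 SETDB1, the highest member of all. It was acetylated in B16 in both genotypes, with 15.12, 13.01 and 10.71 RPM in CTRL and 10.6, 8.68 and 11.82 RPM in SETDB1. Gm33391 had 13.72, 14.07 and 8.787 RPM in MC38 SETDB1 and Gm20190 had 5.656, 6.772 and 5.975 RPM, both with H3K9Ac in all 6 B16 libraries. Gm39258 had 8.822, 6.035 and 5.764 RPM and no H3K9Ac island in any B16 library. Of the coding genes, Grid2ip, a partner of a glutamate receptor at synapses, had 8.194, 6.628 and 5.237 RPM in MC38 SETDB1. Its window had H3K9Ac in all 6 B16 libraries, at 7.298, 3.621 and 5.878 RPM in CTRL and 7.684, 6.727 and 5.244 in SETDB1. Fhl2, a LIM-domain cofactor of transcription whose upstream stretch is printed above, had 5.737, 3.182 and 4.639 RPM in MC38 SETDB1. In B16 its window had an H3K9Ac island in CTRL replicate 1 alone, at 5.626 RPM. H3K9me3 there was 15.66, 15.49 and 18.63 RPM in B16 CTRL and 11.79, 14.72 and 13.5 RPM in B16 SETDB1. In these unscaled values each SETDB1 library was below each CTRL library, as were the median H3K9me3 island densities over the genome given above. The order is therefore not particular to this window. The B16 values of Fhl2 are given after they were seen.

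In MC38, H3K9me3 was scarcer at the member windows than over all windows in CTRL and in SETDB1 replicates 1 and 2. In MC38 CTRL, 18 members (3.8%) had at least 500 bp of H3K9me3 in all 3 libraries, against 11.6% of all windows and 16% of those without CTRL H3K9Ac. In MC38 SETDB1 it was 10 members (2.11%), against 8.41% of all windows. No H3K9me3 island of any of the 6 MC38 libraries reached 348 members (73.4%, all windows 55.2%). Library by library, 41, 72 and 35 members had at least 500 bp in CTRL replicates 1, 2 and 3, and 18, 56 and 62 in SETDB1. The ranges overlapped, and SETDB1 replicate 3, whose H3K9me3 islands covered least of the genome, had the most of its genotype. In that library the share of members was 13.1%, against 13.2% of all windows. In SETDB1 replicates 1 and 2 it was 3.8% and 11.8%, against 29% and 25.8%. The lost windows had like values, with 3.64% methylated in all 3 CTRL libraries and 75.2% free of islands in all 6.

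**Figure D5:**
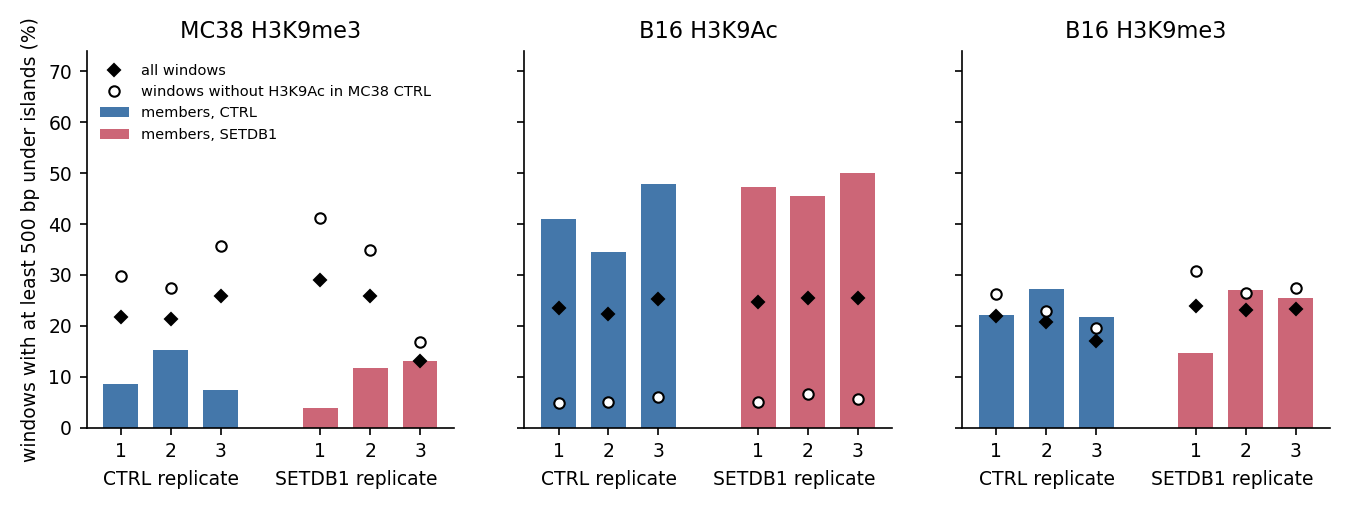
Share of windows (%) in which islands covered 500 bp or more, library by library, for MC38 H3K9me3, B16 H3K9Ac and B16 H3K9me3. Bars are the 474 members, diamonds all windows and open circles windows without H3K9Ac in MC38 CTRL. Member bars are at or below the diamonds in all 6 MC38 H3K9me3 libraries and above them in all 6 B16 H3K9Ac libraries.

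Few members lost H3K9me3 islands where they gained H3K9Ac. By the same rule of covered length, 4 members (0.844%) lost H3K9me3 in MC38 and 0 gained it, against 0.129% and 0.0671% of all windows. Without SETDB1 replicate 1 the losses were 6 (1.27%) against 0.833% of all windows, and without any other single library 4 or 5 against 0.255% to 0.444%. The covered length in SETDB1 was below CTRL without overlap in 6 members (1.27%, all windows 0.475%) and above in 0 (all windows 0.355%). The window from 90635001 on chromosome 3, 11.92 kb from S100a7a, had 3.806, 7.735 and 2.12 RPM of H3K9me3 in CTRL and no island in any SETDB1 library. Its H3K9Ac was 15.28, 7.489 and 8.372 RPM in SETDB1. The window from 4430001 on chromosome 8, 57.82 kb from the ceramide synthase gene Cers4, had 7.978, 3.378 and 11.08 RPM of H3K9me3 in CTRL and no island in SETDB1. Its H3K9Ac was 3.105, 2.247 and 2.751 RPM in SETDB1. In B16 both had no H3K9Ac island in any library and kept H3K9me3 in both genotypes. It was 18.43, 17.84 and 17.18 RPM in CTRL and 14.26, 18.32 and 14.07 in SETDB1 at the first, and 9.917, 12.25 and 16.67 against 10.73, 15.97 and 14.77 at the second.

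The others were a window 9.656 kb from Oxct1, an enzyme of ketone body use, with 10.54, 10.8 and 3.652 RPM of H3K9me3 in CTRL (chromosome 15 from 4165001). The fourth lay 44.37 kb from Diras2, a small GTPase, with 11.79, 14.9 and 5.693 RPM (chromosome 13 from 52455001). Neither had an H3K9me3 island in any SETDB1 library. Some members held both marks after the guide. In SETDB1 replicate 3, H3K9me3 islands had a median density of 4.476 RPM per kb over the genome. The median was 1.665 and 2.158 in SETDB1 replicates 1 and 2, and 2.758, 2.766 and 2.088 in CTRL. RPM were not scaled for this, so high values of SETDB1 replicate 3 do not by themselves show a rise. The window of the Gm39258 start had 5.595, 9.942 and 4.656 RPM of H3K9me3 in CTRL and 0.811, 6.478 and 10.66 RPM in SETDB1, beside its H3K9Ac. A window 34.72 kb from Rsph3b on chromosome 17 (from 6865001) had 2.431, 2.287 and 2.599 RPM in CTRL and 0, 2.151 and 14.31 RPM in SETDB1. Its H3K9Ac stood at 9.338, 8.595 and 8.152 RPM, so the marks were called over the same 5 kb. A window in the non-coding gene Gm34576 (chromosome 3 from 65450001) had 17.3, 17.35 and 12.27 RPM of H3K9me3 in CTRL and 5.044, 0 and 0 RPM in SETDB1, all below CTRL. A window 53.85 kb from Glis3 (chromosome 19 from 28200001) had 1.729, 2.569 and 3.9 RPM in CTRL and 0, 9.602 and 15.39 RPM in SETDB1, which overlap.

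Of the 474 members, 200 had enough H3K9me3 reads over the 12 libraries to be tested. Reads of either line counted, so some of the 200 had islands in B16 alone and could not change in MC38. With the 6 MC38 libraries alone, 112 members could be tested. In the fit of 12 libraries, edgeR's quasi-likelihood test called 2 lower and 0 higher in MC38 SETDB1. These were the windows near S100a7a and Cers4 (adjusted p = 0.00833 and 0.0103, Benjamini-Hochberg over 269905 windows). The background was 0.0411% of all windows called lower and 0.0137% called higher. Without adjustment, 9 members had a p under 0.05 towards lower values (4.5%, all windows 2.51%) and 4 towards higher (2%, all windows 2.37%). DESeq2 called 10 members lower and 5 higher, and of all windows 2.43% lower and 2.99% higher. Both calls were lost with the 6 MC38 libraries alone and with the replicate number as a block, where 0 members were called. Without SETDB1 replicate 3, the library that stood apart, 2 members were called. Both windows had islands in all 6 B16 libraries, which share the estimate of the spread in that fit. Among the 7 members with reads in all 6 MC38 libraries the median log2 change was -0.26, and over all 37698 such windows -0.10.

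In B16, unlike most windows bare in MC38 CTRL, many members were acetylated. In all 3 B16 CTRL libraries 115 members (24.3%) had at least 500 bp of H3K9Ac, against 18.4% of all windows and 2.86% of those without islands in MC38 CTRL. In B16 SETDB1 it was 154 (32.5%, all windows 20.4%), and 97 were acetylated in all 6. With stricter islands, leaving out the 25% of each library's islands with the fewest reads per kb, 71 members (15%) were acetylated in B16 CTRL, against 13.7% of all windows. Counting 2 or more of the 3 libraries it was 189 (39.9%), against 23.4%. No B16 H3K9Ac island reached 118 members (24.9%), against 65.9% of all windows and 88.1% of those without MC38 CTRL islands. The lost windows of MC38 stood close, with 24.5% acetylated in all 3 B16 CTRL libraries and 32.1% free of islands. Library by library, 194, 164 and 227 members had at least 500 bp in B16 CTRL and 224, 215 and 237 in B16 SETDB1, which overlap.

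In B16, H3K9Ac islands covered more of a member with the Setdb1 guide more often than less of it, as over all windows. By the rule of covered length 12 members (2.53%) were gained in B16 and 3 (0.633%) lost, against 0.251% and 0.0338% of all windows. The covered length was above CTRL without overlap in 38 members (8.02%) and below in 3 (0.633%), against 1.89% and 0.177% of all windows. Of the lost windows of MC38, 2.42% were above and 0.909% below. H3K9Ac islands covered more of the whole genome in B16 SETDB1, 436.7 to 448.3 Mb against 380.3 to 423.4 Mb in CTRL, and the part of this in the members' counts was not tested. With 1 B16 library left out, 14 to 20 members were gained (0.396% to 0.507% of all windows), with 20 without CTRL replicate 3 or SETDB1 replicate 2.

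The test per window called none of them. Of the 474 members 353 could be tested in the 6 B16 libraries, and edgeR called 0 higher and 0 lower, as it did over all 174435 windows (0%). At an unadjusted p under 0.05, 24 members were higher (6.8%) and 9 lower (2.55%), against 2.25% and 0.97% of all windows. With the replicate number as a block, which pairs these libraries, 11 were higher (3.12%) and 1 lower (0.283%), against 2.27% and 1.63% of all windows. DESeq2 called 19 members higher and 3 lower, and of all windows 1.36% and 0.427%. The 111 members with reads in all 6 libraries had a median log2 change of 0.06 and 64 were above 0, where all 96695 such windows had -0.01 and those without MC38 CTRL islands -0.06.

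Among the 12 members gained in both lines were the first windows of the chromosome 8 cluster described above. A window at Foxo1, a transcription factor under insulin signalling, had 4.981, 8.596 and 9.379 RPM in MC38 SETDB1 (chromosome 3 from 52350001). In B16 SETDB1 it had 3.34, 3.906 and 0.7818 RPM (adjusted p = 0.817). A window 1.701 kb from Hmgb1, a nuclear DNA-bending protein, had 5.287, 4.234 and 2.942 RPM in MC38 and 5.662, 2.92 and 5.674 RPM in B16 SETDB1 (chromosome 5 from 149040001). A window 21.59 kb from Tmem270 had 7.639, 4.944 and 7.568 RPM in MC38 and 4.855, 3.172 and 2.558 RPM in B16 SETDB1 (chromosome 5 from 134875001). The non-coding gene Gm32026 had 3.305, 3.405 and 5.413 RPM in MC38 and 1.947, 1.604 and 2.214 RPM in B16 SETDB1. None of these windows had an H3K9Ac island in any CTRL library of either line. Moving the other way, a window inside Zbtb20, a zinc finger repressor, had 4.126, 4.185 and 7.95 RPM in MC38 SETDB1, and in B16 2.51, 4.203 and 2.99 RPM in CTRL and no island in SETDB1 (chromosome 16 from 43530001).

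H3K9me3 in B16 lay on members about as often as on other windows. At least 500 bp in all 3 B16 CTRL libraries lay on 59 members (12.4%), against 11.2% of all windows. By the rule 3 members (0.633%) lost it and 2 (0.422%) gained it, against 0.518% and 0.897% of all windows. The covered length in SETDB1 was below CTRL without overlap in 15 members (3.16%) and above in 7 (1.48%), against 1.36% and 2.64% of all windows. Of 200 members tested in the same fit of both lines, edgeR called 0 in either direction. Of all windows it called 0.295% higher and 0.0904% lower. At an unadjusted p under 0.05, 3 were higher (1.5%, all windows 5.27%) and 7 lower (3.5%, all windows 2.52%). DESeq2 called 7 higher and 6 lower, and of all windows 7.25% and 2.75%. Per library, 105, 129 and 103 members had at least 500 bp in CTRL and 69, 128 and 121 in SETDB1. SETDB1 replicate 1 was the lowest of the 6 and the groups overlapped.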

How the data were processed

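Chromatin cut with micrococcal nuclease was immunoprecipitated for H3K9me3 or H3K9Ac and sequenced, per the labels' protocols. The submitters' processing notes name cutadapt, Bowtie2 2.1.0, SAMtools 0.1.8, SICER 1.1 and deepTools 3.1.1, and the build mm10. The deposited files list, for each library, enriched islands with their read count, called per sample with bins of 200 bp, gaps of 600 bp and a false discovery rate of 0.05, as the island files are labelled. Reads outside islands are not in these values, so 0 means that no island was called. The 4 input samples were not used here.

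Island counts were apportioned by overlap to 5 kb windows. Windows with a mean of at least 10 reads were tested with edgeR 4.0.16 (R 4.3.3, limma 3.58.1; quasi-likelihood, TMM, Benjamini-Hochberg adjustment over all windows, threshold 0.05). H3K9me3 of both lines was fitted in 1 model of 12 libraries. H3K9Ac of B16 was fitted in its 6 libraries, since the MC38 libraries chose the members. Calls were made again with DESeq2 1.42.0, other scaling, filters, islands, libraries and each replicate left out. DESeq2's default size factors and optimiser were taken after seeing that another setting, whose fits had not converged, called many more windows. The code was tested on simulated data. No 2 libraries of a mark had identical coverage. Python 3.11.15, numpy 2.4.6, pandas 2.3.3 and matplotlib 3.10.9 were used. Gene positions came from RefSeq GRCm38.p6 (49550 genes) and starts from its promoter table (32619 promoters), where chromosome 18 was not used.

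For H3K9Ac, libraries of the same number deviated together (correlations over windows of 0.18, 0.39 and 0.27 in MC38 and 0.27, 0.44 and 0.41 in B16), so the numbers pair these samples. Windows named by rule were ranked by the lowest of the 3 MC38 SETDB1 levels. They were the 12 highest in a coding gene with an established symbol, the 4 longest runs, the windows called for MC38 H3K9me3, the 6 highest gained in B16, the 6 highest with H3K9me3 in MC38 CTRL, up to 4 per gene list, those nearest the threshold and the 6 highest with a gene start. Members and lists were chosen with earlier results of these data known. Depth limits the precision, and island counts of PCR reads are not independent molecules. The values of 1 member window are not reported here.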

Additional observations from a re-analysis of the deposited data

Results flagged for a closer look

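In 3 member windows the lines moved in opposite directions: H3K9Ac islands were gained in all 3 MC38 SETDB1 libraries and lost in all 3 B16 SETDB1 libraries. The difference between the lines was not tested. The first, from 74880001 on chromosome 2 and 3.252 kb from Mtx2, had at least 2600 bp under islands in each B16 CTRL library and none in B16 SETDB1. The second, inside the axonemal dynein gene Dnah6 (from 73060001 on chromosome 6), had at least 2400 bp in each B16 CTRL library. The third, inside Zbtb20, had at least 1400 bp. None passed edgeR's test for B16 H3K9Ac (adjusted p = 0.715, 0.76 and 0.817).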

How the results depend on the processing

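The number of member windows stayed within 1.5 times of 474 with a least length of 200 or 1000 bp, under 200 bp allowed in CTRL, a shifted grid and stricter islands, where the 25% of each library's islands with the fewest reads per kb were left out (363 to 565). With 1 library left out, which can only keep or raise the number, it ran from 681 to 1957. Of the members, 38 had H3K9me3 in at least 2 MC38 CTRL libraries where 18 had it in all 3 (8.02% and 3.8%, all windows 22% and 11.6%). For H3K9Ac in B16 CTRL the count was 189 in at least 2 libraries (39.9%, all windows 23.4%) and 71 with stricter islands (15%, all windows 13.7%), where it was 115 in all 3 (24.3%, all windows 18.4%). A gene start lay within 2 kb of 49 members (10.3%, all windows 8.68%) where 29 held one (6.12%, all windows 5.03%).

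Of the 2 members called for MC38 H3K9me3, 1 was called with stricter islands and 0 with the 6 MC38 libraries alone. With the replicate block 0 were called, as were 0 of all 269905 windows. H3K9me3 libraries of the same number had correlations of 0.26, 0.23 and -0.14 in MC38 and 0.19, 0.10 and 0.00 in B16. For unlike numbers they ran from -0.37 to 0.20 in MC38 and from -0.16 to 0.07 in B16. These values do not settle whether the numbers pair the H3K9me3 samples. With the replicate block 0 members were called for B16 H3K9Ac and B16 H3K9me3, as without it. DESeq2 called 15 of 200 tested members for MC38 H3K9me3 (5 higher, 10 lower). For B16 H3K9Ac it called 22 of 353 (19 higher, 3 lower), and for B16 H3K9me3 13 of 200 (7 higher, 6 lower). Of all windows it called 2.99% higher and 2.43% lower for MC38 H3K9me3. For B16 it called 1.36% and 0.427% for H3K9Ac, and 7.25% and 2.75% for H3K9me3. With all 12 H3K9Ac libraries, including those that chose the members, edgeR called 1 of 473 members for B16. Of all 201802 windows in that fit, 286 were called higher and 36 lower. The causes were not tested. With 1 library left out, 2 members were called each time for MC38 H3K9me3 and 0 for either B16 mark.

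Chosen after seeing the data, leaving out 1 library gave 4 to 6 members losing H3K9me3 in MC38 by the rule (0.255% to 0.833% of all windows) and 14 to 20 gaining H3K9Ac in B16 (0.396% to 0.507%). Weak islands near the calling limit limit the depth of these statements, since reads outside islands are not counted.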
